A study of Homo sapiens with 8 samples.

Results

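The genes described here belong to the transforming growth factor beta (TGF-beta) and bone morphogenetic protein (BMP) pathway. They were taken by gene symbol, from a fixed pattern that covers ligands, latency proteins, antagonists, receptors, SMADs, SMURF ligases, the co-repressors SKI and SKIL, and the ID genes. The pattern takes in 95 symbols of the name table, and 37 of these had a ratio, out of 8801 genes in all. The pattern itself uses no measured value, but the members were chosen with earlier results of these data known. BMP2K, a kinase related to endocytic adaptor kinases, was taken in through its name and is not a signalling component.

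In this pathway dimeric ligands bring type I and type II receptor kinases together, and the type I receptor phosphorylates a receptor-regulated SMAD. SMAD2 and SMAD3 carry TGF-beta and activin signals, SMAD1, SMAD5 and SMAD9 carry BMP signals, and both kinds bind SMAD4 and enter the nucleus. SMAD6, SMAD7, BAMBI, SKI and SKIL restrain the response and several of them are themselves induced by it, while ID1 to ID4 are classical BMP-induced genes.

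The cells were HEK293T, a human embryonic kidney line. The groups used were Pcif1-KO cells with siPCF11, WT cells with siPCF11, Pcif1-KO cells with siScram and WT cells with siScram, with 1 library each. PCIF1 methylates the adenosine that follows the mRNA cap, which gives m6Am, and PCF11 is a cleavage and termination factor. All these cells had received 5 pmol of siRNA and were harvested after 48 h for nuclear RNA, which was sequenced from the 3′ end after s4U labelling. The shared transfection protocol also lists an siRNA against Dis3, which no sample label names. The labels do not say how the knockout line was made or whether it is 1 clone.

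Every value is a log2 ratio of WT over Pcif1-KO from the authors' deposited tables, so a negative ratio means a higher value in Pcif1-KO cells. The tables give no level, count or error, so the depth behind each ratio is unknown. PCIF1 itself had no ratio here, and PCF11's ratio compares cells given the same siRNA, so neither target could be checked. Of the marker genes looked up, 6 of 7 renal or neural ones named for HEK293 cells had a ratio, as did 2 of 4 epithelial ones (KRT8 and KRT18), against 0 of 6 fibroblast, 0 of 4 endothelial and 0 of 5 blood markers. The neurofilament gene NEFM, among the renal or neural markers, was at -3.23 with siPCF11 and -2.71 with siScram in the authors' deposited tables, the lowest ratio of all genes with each siRNA, and its part in the results was not tested. In bulk libraries such as these a change in RNA per cell and a change in the share of cells making it cannot be told apart. Both lines also differ by region: the medians of chromosome neighbourhoods are not all near 0, and on chromosome 20 the median was 0.37 with siPCF11 and 0.29 with siScram in the authors' deposited tables. The median of the other genes in a 10 Mb window is therefore given in the text for some genes. The plots of ratios by gene draw it as grey bars. A gene described without this median can still lie in a shifted region. With siPCF11 the median was -0.26 for BAMBI, -0.17 for TGFBR3 and 0.33 for TGIF2. With siScram it was -0.09, -0.09 and 0.18 in the same order.

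What stood out was ID4, which was higher in Pcif1-KO cells with both siRNAs, and SKI, which was lower, although SKI lies in a region where many genes were lower too. The remaining pathway genes mostly lay within 0.5 of 0 on the log2 scale. Of the ligand-side genes, GDF11, BMP2, BMP4 and BMP1 were below 0 with both siRNAs and BMP7 above it. BMP4 was close to 0 with both siRNAs, and BMP1 with siPCF11. On the receptor side BMPR2 had the lowest mean over both siRNAs and ACVR2B the highest. Ratios with siPCF11 and siScram are compared below gene by gene.

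Because the study concerns the first transcribed base, the annotated start sites are shown first. The authors' tables assign each gene to an m6Am or a non-m6Am class and to a long or a short class. Of the 37 pathway genes, 10 (27.0%) were in the m6Am class, against 48.8% of all 8801 genes. Among long genes, the m6Am class held 4 of 24 pathway members (16.7%), against 41.0% of all long genes. Among short genes it held 6 of 13 (46.2%), against 60.6% of all short genes. The m6Am members were BMP2, BMP7, GDF11, ID2, ID4, SMAD3, SMAD4, SMAD5, SMAD6 and TGFBRAP1. The median RefSeq span was 50.5 kb for the pathway genes and 30.1 kb for all genes, and spans ran from 1.22 kb for ID1 to 226 kb for TGFBR3.

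An mRNA can carry m6Am only where its first base is A. RefSeq start-site sequences (GRCh38.p14) were found for 31 of the 37 genes, and for genes with several sequences the outermost start among them was used. For ACVR2A, BMP4, SMAD1, SMAD9 and TGFBR3 that start lies inside the gene's RefSeq span. The sequences below run from 15 bases before the start to 10 bases after it, 5′ to 3′ on the gene's strand, with the first transcribed base in capitals. The first 8 are all m6Am members with a sequence, and BMPR2, ID1 and ID3 are non-m6Am genes described below for comparison.
GDF11 (chr12:55743107-55743132, plus strand): ggctcgggcccccccAgccgcccgcc
ID2 (chr2:8682041-8682066, plus strand): ccgggctcgggcttcAttctgagccg
ID4 (chr6:19837355-19837380, plus strand): cgcggcgggccgggcGagagcgtagt
SMAD3 (chr15:67065587-67065612, plus strand): cacgcggatttgcatGaaacacagac
SMAD4 (chr18:51030198-51030223, plus strand): ggtccccgcgcgcgcAtgctcagtgg
SMAD5 (chr5:136132830-136132855, plus strand): ctccctccctccctcAtccgggtcct
SMAD6 (chr15:66702221-66702246, plus strand): agtgtctagactggcAtatgatggga
TGFBRAP1 (chr2:105329725-105329750, minus strand): tggcggccgccccacGtgacgggaag
BMPR2 (chr2:202376312-202376337, plus strand): actggcagctgcggcGactcccccct
ID1 (chr20:31605274-31605299, plus strand): tggctccgcactctcAttccacgttc
ID3 (chr1:23559491-23559516, minus strand): gcggcgagcgtgcgcGcgttgcaggt

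Among the m6Am members 5 of 8 annotated starts were A, and the 3 others, in ID4, SMAD3 and TGFBRAP1, were G. Among the non-m6Am members 10 of 23 were A. Over all genes with a sequence, A was the annotated first base of 50.1% of 3637 m6Am genes and of 39.6% of 3658 non-m6Am genes. The annotated start is a single position per gene and need not be the one these cells used.

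Promoters were also searched for 2 sequences that SMAD proteins are known to bind. The palindrome GTCTAGAC, bound by SMAD3 and SMAD4, was present in the 250 bases before the start of 1 of 31 members, SMAD6, against 0.123% of 7295 genes with a ratio and 0.183% of 27305 RefSeq promoters. It spans the bases from 12 to 5 before the SMAD6 start, and is in capitals in this stretch, which ends on the first transcribed base.
SMAD6 (chr15:66702176-66702236, plus strand): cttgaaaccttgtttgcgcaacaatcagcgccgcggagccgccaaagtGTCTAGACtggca

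The palindrome GGCGCC, a GC-rich SMAD site, was present in 10 of the 31 members (32.3%), against 27.8% of genes with a ratio and 16.0% of all RefSeq promoters. Both letter strings read the same on either strand and do not overlap each other. A match describes the letters only.

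Ligand genes came first in the order of the pathway. BMP2, a ligand on chromosome 20, had ratios of -0.29 with siPCF11 and -0.30 with siScram in the authors' deposited tables. The other genes of its 10 Mb window had medians of 0.35 and 0.33, so BMP2 lay 0.65 and 0.63 below its neighbours in the same order of siRNAs. BMP7, a kidney-expressed ligand on the same chromosome, was at 0.55 with siPCF11 and 0.12 with siScram in the authors' deposited tables. Its window medians were 0.25 and 0.50, so that BMP7 was above its neighbours with siPCF11 and below them with siScram. BMP4 was near 0 in the authors' deposited tables, at -0.05 with siPCF11 and -0.06 with siScram.

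GDF11, a ligand that signals through activin receptors, was at -0.46 with siPCF11 and -0.09 with siScram in the authors' deposited tables. GDF7 was listed with siScram alone, at -0.06 in the authors' deposited tables. Among these ligands BMP7 alone was above 0. No ratio was analysed here for TGFB1, TGFB2, TGFB3, NODAL or any inhibin beta gene.

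Secreted proteins that process or hold ligands varied in direction. BMP1, a metalloprotease that cleaves procollagens and chordin, was at -0.03 with siPCF11 and at -0.61 with siScram in the authors' deposited tables, the lowest pathway ratio with siScram. LTBP3, which tethers latent TGF-beta to the matrix, was at 0.01 with siPCF11 and -0.38 with siScram in the authors' deposited tables. Its region of chromosome 11 had medians of -0.18 and -0.33, so the siScram value was close to that of its 136 neighbours. FSTL1, a secreted follistatin-like glycoprotein, was at -0.58 with siPCF11 and 0.09 with siScram in the authors' deposited tables. LTBP4 was listed with siScram alone, at 0.11, and the BMP antagonist NOG with siPCF11 alone, at 0.53, in the authors' deposited tables.

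**Figure D1:**
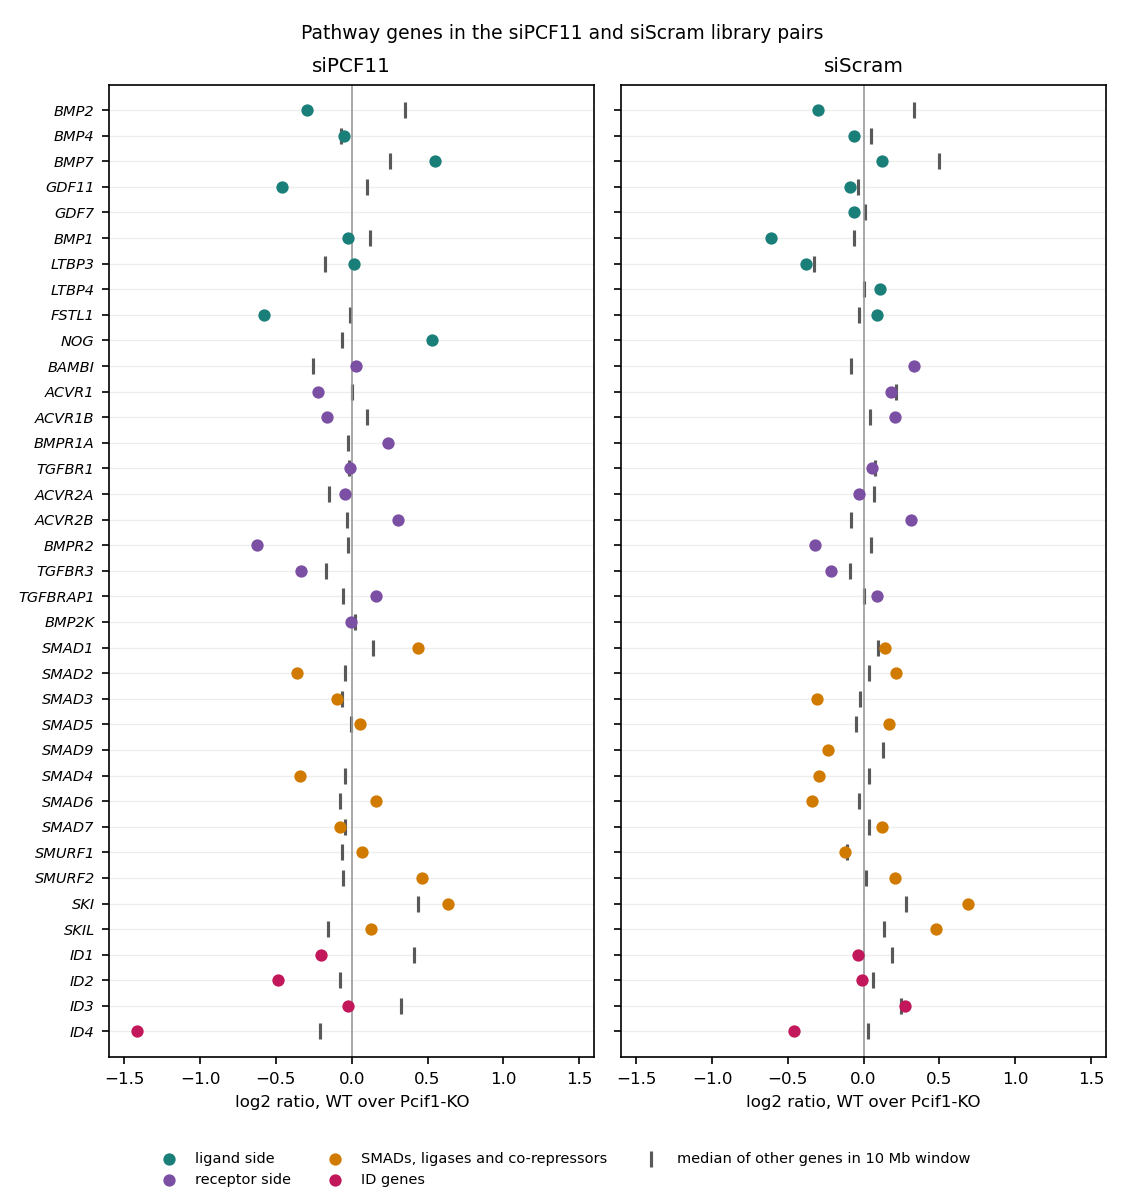
Log2 ratio, as WT over Pcif1-KO, in each of the 37 pathway genes (points, coloured by position in the pathway), with siPCF11 on the left and siScram on the right, and the median of the other genes in its 10 Mb window (grey bars). Genes with no point in a panel had no ratio there. ID4 lies at -1.42 with siPCF11 and -0.46 with siScram, and SKI at 0.63 and 0.69 beside window medians of 0.44 and 0.28.

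Among the receptors the type II genes differed from one another. BMPR2, the main type II receptor for BMPs (chromosome 2, 202376327 to 202567749), was at -0.62 with siPCF11 and -0.32 with siScram in the authors' deposited tables. Its window medians were -0.02 and 0.05. ACVR2B, an activin type II receptor, had the opposite sign, at 0.30 with siPCF11 and 0.32 with siScram in the authors' deposited tables. Its close relative ACVR2A was near 0, at -0.04 and -0.03 in the authors' deposited tables. No ratio was analysed here for TGFBR2.

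Type I receptors stayed within 0.25 of 0 in the authors' deposited tables. ACVR1, a BMP type I receptor, was at -0.22 with siPCF11 and 0.18 with siScram, and ACVR1B, the activin type I receptor, at -0.16 and 0.21, in the authors' deposited tables. In the authors' deposited tables TGFBR1 was at -0.01 and 0.06, and BMPR1A, a BMP type I receptor listed with siPCF11 alone, was at 0.24. The window medians were 0.00054 with siPCF11 and 0.21 with siScram for ACVR1, 0.10 and 0.04 for ACVR1B, and -0.02 and 0.08 for TGFBR1. Relative to its neighbours ACVR1B alone of these lay below 0 with siPCF11 and above 0 with siScram. TGFBR3, the co-receptor betaglycan, was at -0.34 with siPCF11 and -0.21 with siScram, and the pseudoreceptor BAMBI, which lacks a kinase domain, at 0.03 and 0.34, in the authors' deposited tables. TGFBRAP1, a receptor-associated protein, was at 0.16 and 0.09, and BMP2K, listed with siPCF11 alone, at -0.01, in the authors' deposited tables.

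The SMAD genes did not move as a group. SMAD1 was at 0.44 with siPCF11 and 0.14 with siScram, and SMAD5 at 0.06 and 0.17, in the authors' deposited tables, so that both BMP SMADs with 2 ratios were above 0 each time. SMAD9, the third BMP SMAD, was listed with siScram alone, at -0.23 in the authors' deposited tables. SMAD3 was below 0 with both siRNAs, at -0.10 and -0.31, and SMAD2 was at -0.36 with siPCF11 and 0.22 with siScram, in the authors' deposited tables. The shared partner SMAD4 was at -0.34 with siPCF11 and -0.30 with siScram in the authors' deposited tables, and its window medians were -0.04 and 0.03.

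Of the inhibitory SMADs, SMAD6 was at 0.16 with siPCF11 and -0.34 with siScram in the authors' deposited tables. SMAD7 was at -0.08 and 0.12 in the authors' deposited tables. Several SMAD genes are neighbours and still differed. SMAD2, SMAD7 and SMAD4 lie in this order on chromosome 18, with 0.989 Mb and 2.08 Mb between them, and share window medians of -0.04 with siPCF11 and 0.03 with siScram. SMAD6 and SMAD3 are 283 kb apart on chromosome 15, and were at 0.16 and -0.10 with siPCF11, but at -0.34 and -0.31 with siScram, in the authors' deposited tables.

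Of the ligases and co-repressors that end or limit signalling, SMURF2, SKI and SKIL lay above 0 with both siRNAs. SMURF2, a ubiquitin ligase that targets receptors and SMADs, was at 0.47 with siPCF11 and 0.21 with siScram, and SMURF1 at 0.07 and -0.12, in the authors' deposited tables. SKI, a nuclear co-repressor that binds SMAD complexes (chromosome 1, 2228319 to 2310213), was at 0.63 with siPCF11 and 0.69 with siScram in the authors' deposited tables. In linear terms its RNA in Pcif1-KO cells was 0.645 times the WT value with siPCF11 and 0.620 times with siScram. Its paralog SKIL was at 0.13 with siPCF11 and 0.47 with siScram in the authors' deposited tables. SKI lies near the end of the chromosome, where the other genes of its window had medians of 0.44 with siPCF11 over 48 genes and 0.28 with siScram over 45 genes. Relative to these neighbours SKI was at 0.20 and 0.41, and the part of the regional shift in its ratio was not tested.

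ID1 to ID4 encode helix-loop-helix proteins that lack a DNA-binding region and hold other such factors inactive. ID4 (chromosome 6, 19837370 to 19842197) was at -1.42 with siPCF11 and -0.46 with siScram in the authors' deposited tables, which makes it 2.67-fold and 1.38-fold higher in Pcif1-KO than in WT cells. Its siPCF11 ratio was at rank 17 from the lowest of 8499 genes and its siScram ratio at rank 684 of 7893. The other genes of its window had medians of -0.21 over 17 genes with siPCF11 and 0.03 over 17 genes with siScram.

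The other ID genes differed less. ID2 was at -0.49 with siPCF11 and -0.01 with siScram, ID1 at -0.20 and -0.03 and ID3 at -0.03 and 0.27, in the authors' deposited tables. ID1, on chromosome 20, and ID3, on chromosome 1, lie in windows with siPCF11 medians of 0.41 and 0.32, so that with siPCF11 ID1 was 0.62 and ID3 0.35 below its neighbours. With siScram ID1 was 0.22 below its neighbours and ID3 0.03 above them. All 4 ID genes were below 0 with siPCF11, and 3 of 4 were below 0 with siScram, against 51.1% of all genes with each siRNA. Of these, ID3 with siPCF11 and both ID1 and ID2 with siScram were close to 0. The counts of so few genes are no result about the ID genes as a group.

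Whether the genotypes differed over both siRNAs was tested with limma, on the mean of the 2 ratios of each gene, for all 7591 genes that had both. ID4 was higher in Pcif1-KO cells, with a mean log2 ratio of WT over Pcif1-KO of -0.94 ± 0.20 (SE, n = 2 library pairs, limma adjusted p = 0.00026). SKI was lower in Pcif1-KO cells, with a mean of 0.66 ± 0.20 (SE, n = 2 library pairs, limma adjusted p = 0.023). These were the calls among the 31 pathway genes tested: 1 lower in WT, against 2.82% of all genes, and 1 higher in WT, against 2.67% of all genes. A count of 1 in 31 in each direction is near that background and is no result about the pathway.

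BMPR2 came next, with a mean of -0.47 and an unadjusted p of 0.018, but did not pass adjustment over all genes (limma adjusted p = 0.16). SMURF2 and BMP7 followed at 0.34 and 0.33 (limma adjusted p = 0.38 and 0.39), and ACVR2B, SKIL and SMAD1 at 0.31, 0.30 and 0.29 (limma adjusted p = 0.43, 0.45 and 0.47). Below 0, BMP1 and SMAD4 both had a mean of -0.32 (limma adjusted p = 0.42 for each) and BMP2 one of -0.30 (limma adjusted p = 0.46). This order depends on region for the chromosome 20 genes BMP7 and BMP2. Centred on 10 Mb windows, their means were -0.04 and -0.64 (limma adjusted p = 0.96 and 0.089), and that of BMPR2 was -0.49 (limma adjusted p = 0.21).

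The fit used 1 SD of 0.28 for every gene, although the ratios of ID4 differed by 0.95 between the siRNAs. Without such pooling neither gene was called (unpooled adjusted p = 0.73 for ID4 and 0.66 for SKI). The unpooled test has 1 residual degree of freedom and called 0 of all 7591 genes, so the lack of a call is not particular to ID4 and SKI. Its unadjusted p was 0.30 for ID4 and 0.027 for SKI. The SD of a gene's own 2 ratios was 0.67 for ID4 and 0.04 for SKI. The limma adjusted p of ID4 therefore rests on a pooled SD smaller than its own. ID4 was called after centring on its 10 Mb window (mean -0.85, limma adjusted p = 0.046), whereas SKI was not (mean 0.30, limma adjusted p = 0.47).

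**Figure D2:**
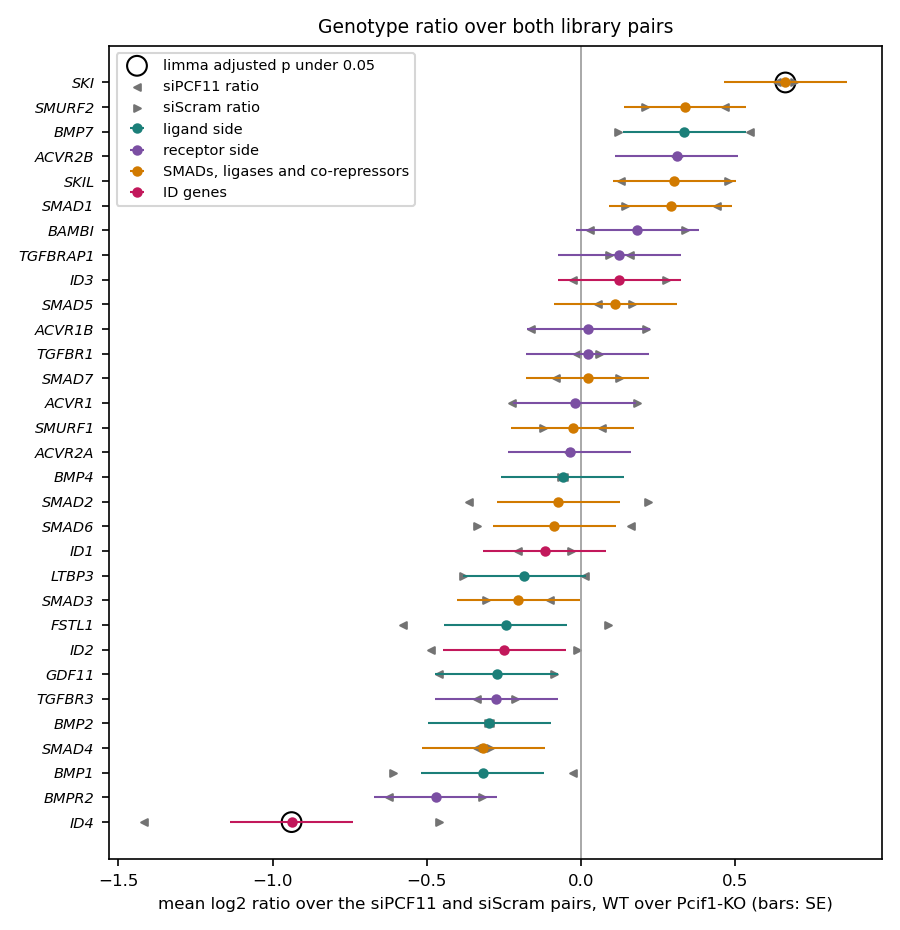
Mean log2 ratio of WT over Pcif1-KO over both library pairs for the 31 pathway genes tested (points, with the limma SE as bars), with the siPCF11 and siScram ratios as grey triangles pointing left and right. Circles mark the genes with a limma adjusted p under 0.05, which are ID4 at -0.94 and SKI at 0.66. SKI was not among the calls after centring on 10 Mb windows.

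Within each siRNA the 1 library per genotype allows no test, and genes were counted past a log2 ratio of 0.5 in either direction. With siPCF11, 3 of 34 pathway genes were above 0.5, SKI, BMP7 and NOG, against 8.81% of all genes, and 3 of 34 were below -0.5, ID4, BMPR2 and FSTL1, against 8.7%. With siScram, SKI was the 1 of 34 above 0.5, against 6.11% of all genes, and BMP1 the 1 of 34 below -0.5, against 6.98%. The siPCF11 counts were thus near the background, and the siScram counts of 1 gene in each direction are too small to be read as below it. After centring on 10 Mb windows, 2 were above 0.5 and 6 below -0.5 with siPCF11, and 0 were above and 2 below with siScram. The share of all genes past 0.5 after this centring was not computed, so these centred counts have no background and are no result about the pathway.

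The median of the pathway genes was -0.03 with siPCF11 and 0.02 with siScram, beside -0.01 for all genes with either siRNA. The middle 50% of pathway genes ran from -0.28 to 0.15 with siPCF11 and from -0.23 to 0.18 with siScram. With siPCF11 20 of 34 were below 0, against 51.1% of all genes, and with siScram 17 of 34, against 51.1%. The siScram median was -0.041 after each gene was centred on its window.

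By the authors' classes, the 10 m6Am members had medians of -0.20 with siPCF11 and -0.19 with siScram, beside 0.03 and -0.0023 for all m6Am genes. The 24 non-m6Am members listed with each siRNA had medians of -0.02 with siPCF11 and 0.10 with siScram, beside -0.05 and -0.02 for all non-m6Am genes. These are descriptions of small lists, and no test was made of the difference.

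With the siRNAs set side by side, 21 of 31 pathway genes had the same sign with both, 9 above 0 and 12 below it. The other 10 had opposite signs, against 38.3% of all genes. Across the 31 genes the siPCF11 and siScram ratios had a Pearson correlation of 0.51, and across all 7591 genes one of 0.43. The pairs come from separate libraries but from the same WT and Pcif1-KO lines, and genes are not independent replicates.

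**Figure D3:**
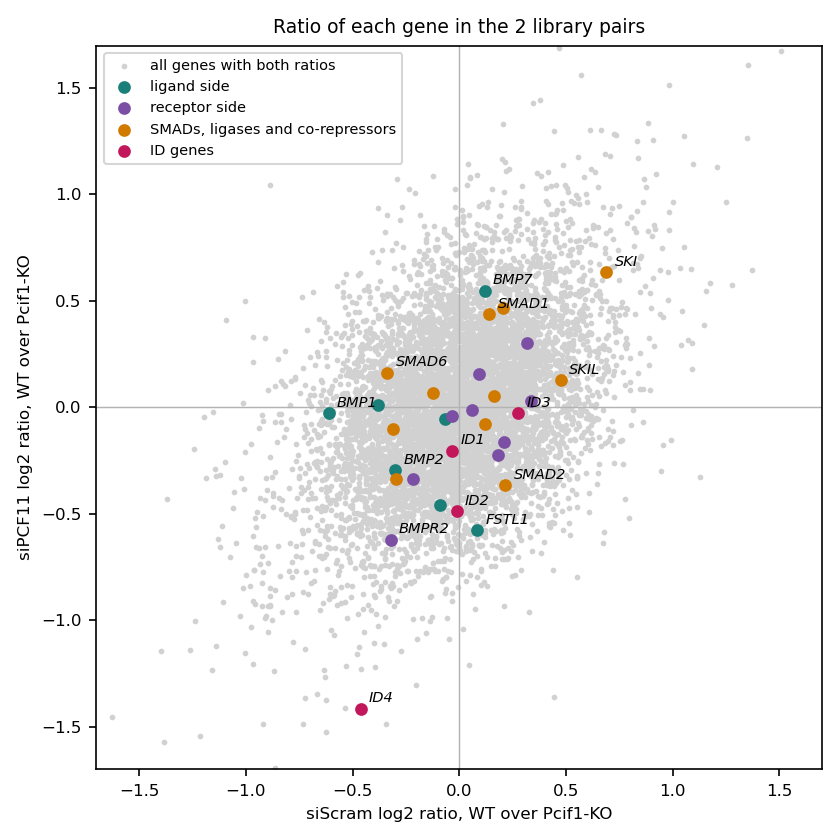
Log2 ratio of WT over Pcif1-KO with siPCF11 (vertical axis) against siScram (horizontal axis) for genes with both ratios, all genes in grey and the 31 pathway genes in colour. Of 7591 genes 19 lie outside the axes. ID4 is apart from the other pathway genes at the lower left, and SKI lies at the upper right.

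The siPCF11 minus siScram difference shows where the genotype ratio was not the same with each siRNA, and 1 value per gene leaves it without an error. It was below 0 for 20 of 31 pathway genes, against 49.2% of all genes, with a median of -0.07 beside 0.0072 for all genes. All 4 ID genes were among those below 0, with differences of -0.95 for ID4, -0.47 for ID2, -0.30 for ID3 and -0.17 for ID1. The middle 50% of all genes ran from -0.25 to 0.28, so ID1 lay inside that range and ID3 just outside it. FSTL1 at -0.66 and SMAD2 at -0.58 had the other differences below -0.5, and the highest differences were those of BMP1 at 0.58, SMAD6 at 0.50 and BMP7 at 0.43. The difference of ID4 was at rank 50 from the lowest of 7591 genes.

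Regulators and targets that the symbol pattern leaves out were taken from a list of 58 further genes of the pathway, of which 49 had a ratio. The list was made with earlier results of these data known, so counts from it are no result about the pathway. Of the 44 tested with limma, 3 were lower in WT, against the 2.82% of all genes, and 3 were higher in WT, against the 2.67%. Those higher in Pcif1-KO cells were all targets of the pathway. CCN1, a matricellular protein, was at -1.24 with siPCF11 and -0.87 with siScram in the authors' deposited tables, with a mean of -1.05 (limma adjusted p = 2.0e-05). CDKN2B, the TGF-beta-induced cell cycle inhibitor p15, was at -1.37 and -0.72 in the authors' deposited tables, with a mean of -1.04 (limma adjusted p = 2.6e-05). SNAI2, a transcription factor of epithelial-mesenchymal transition, was at -1.11 and -0.35 in the authors' deposited tables, with a mean of -0.73 (limma adjusted p = 0.0085).

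Those lower in Pcif1-KO cells were regulators. RGMA, a BMP co-receptor, was at 1.14 with siPCF11 and 0.49 with siScram in the authors' deposited tables, with a mean of 0.81 (limma adjusted p = 0.0025). TGIF2, a SMAD co-repressor on chromosome 20, was at 0.71 and 0.85 in the authors' deposited tables, with a mean of 0.78 (limma adjusted p = 0.0043). TAB1, which activates the kinase MAP3K7, was at 0.91 and 0.32 in the authors' deposited tables, with a mean of 0.62 (limma adjusted p = 0.041). After centring on the 10 Mb window CCN1 and CDKN2B were the 2 called.

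Other targets did not all share the direction of ID4. MSX2, a BMP-induced homeobox gene, had the highest mean among targets, with ratios of 0.52 with siPCF11 and 0.43 with siScram in the authors' deposited tables (mean 0.47, limma adjusted p = 0.16). Of the 13 targets listed with siPCF11, 8 were below 0, with a median of -0.22. Of the 14 listed with siScram, ATOH8 included, 6 were below 0, with a median of 0.015. Of all genes 51.1% were below 0 with each siRNA, with medians of -0.01. As the list was made with earlier results known, these values are no result about targets. ATOH8, a BMP-induced factor named after its value was seen, was listed with siScram alone, where the authors' deposited tables give -1.22. In the remaining groups the lowest means were those of the ubiquitin ligase NEDD4L (-0.53, limma adjusted p = 0.10), of CRIM1, which binds BMPs (-0.38, limma adjusted p = 0.31), and of the inner nuclear membrane protein LEMD3 (-0.29, limma adjusted p = 0.46).

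**Figure D4:**
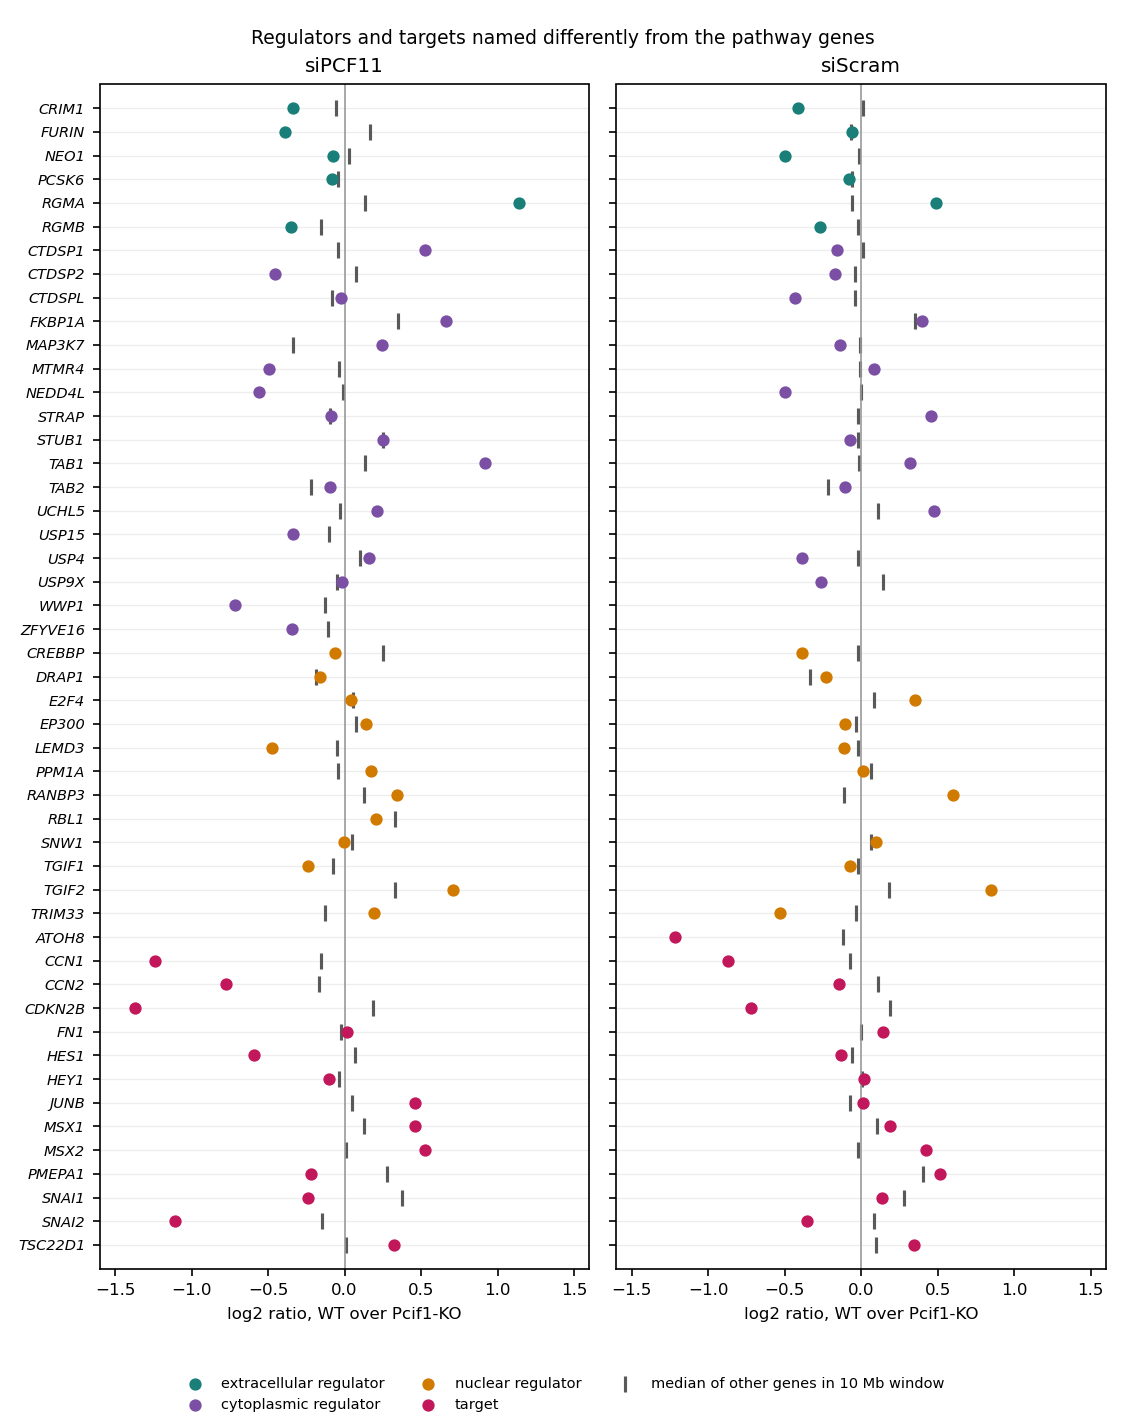
Log2 ratio, as WT over Pcif1-KO, in 49 further regulators and targets of the pathway (points, coloured by kind), with siPCF11 on the left and siScram on the right, and the median of the other genes in each 10 Mb window (grey bars). CDKN2B at -1.37 and CCN1 at -1.24 are lowest with siPCF11, where RGMA is highest at 1.14.

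Some ratios could include reads of overlapping genes, since none of the sources used here says whether counting used strand. The RefSeq spans of 21 of the 37 members overlap another annotated gene. Genes with a ratio of their own are among these, such as PAQR3 for BMP2K, SARNP for GDF11 and ORC4 for ACVR2A. ID4 and SKI overlap none.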

How the data were processed

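Log2 ratios of WT over Pcif1-KO came in 2 deposited tables (1 of short genes, 1 of long), in 8 columns by siRNA and m6Am class, per the file headers and table titles. The submitters' processing notes list DESeq2 1.30.1, HTSeq 2.0.1, STAR 2.7.10a, cutadapt 3.7, bcl2fastq 2.20 and hg38, with no role. Not given in the sources used here are scaling, shrinkage, gene filters, depth, and whether labelled reads alone were counted. A 3′ end value can also move with the cleavage site used. Of 8 libraries in 7 groups, the 4 rescue libraries were not analysed here.

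Versions were stripped from gene IDs, 8792 of 8801 got a symbol, and 8723 a RefSeq GRCh38 span. Window medians use genes within a 10 Mb window centred on the gene, the gene itself left out, or its chromosome where under 5 genes remained. limma 3.58.1 (R 4.3.3) tested a mean of 0 over the 2 ratios of 7591 genes, two-sided, with Benjamini-Hochberg adjustment and a threshold of 0.05. With 1 residual degree of freedom per gene it pooled 1 SD. A true siRNA effect counts as error there, and p-values cover neither other clones nor other cultures. Members, lists and the naming rule (all members with a ratio, called further genes, and the highest and lowest of each further group) were chosen with earlier results of these data known. BMP2K was given its role after its value was seen.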

Additional observations from a re-analysis of the deposited data

Results flagged for a closer look

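For 10 pathway genes the ratio of WT over Pcif1-KO had opposite signs with the 2 siRNAs, in the 1 library pair of each. These differences between siRNAs were not tested, and many are small. The siPCF11 minus siScram difference was -0.66 for FSTL1, -0.58 for SMAD2, -0.41 for ACVR1, -0.37 for ACVR1B, -0.30 for ID3, -0.20 for SMAD7 and -0.07 for TGFBR1. It was 0.19 for SMURF1, 0.40 for LTBP3 and 0.50 for SMAD6. Of all 7591 genes 38.3% had opposite signs.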

How the results depend on the processing

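Of 31 pathway genes tested 2 were called. The number was also 2 with robust empirical Bayes, with centring on all genes, and with chromosome centring, where BMP2 (-0.63, limma adjusted p = 0.036) replaced SKI (0.60, limma adjusted p = 0.051). It was 1 with 10 Mb and with 20 Mb windows (ID4), 1 in the long table (SKI) and 1 in the short table (ID4). Without limma's pooling it was 0 (unadjusted p under 0.05 for 4). Over all genes 417 were called, against 0 without pooling (559 at an unadjusted p under 0.05), 116 with 10 Mb and 116 with 20 Mb windows, 158 in the long and 180 in the short table. Of the further pathway genes 6 were called, against 0 without pooling (4 at an unadjusted p under 0.05), 2 with 10 Mb and 3 with 20 Mb windows, and 1 in the long table. Regional centring removes any true effect that neighbours share. The error that limma estimated also differed between these fits. With the same mean of -0.94, ID4 had an unadjusted limma p of 2.5e-06 in the main fit and of 0.00024 in the short table. Past a log2 ratio of 0.25 in either direction there were 15 pathway genes with siPCF11 and 13 with siScram. Past one of 1 there were 1 and 0, in the same order. The share of all genes past 0.25 or 1 was not computed, so these counts are no result about the pathway. For all genes the lower and upper quartiles were -0.25 and 0.24 with siPCF11, and -0.23 and 0.21 with siScram. The siScram median was -0.041 with chromosome and -0.041 with 10 Mb window centring, and the other medians moved by at most 0.05. ID4 was at -1.42 without the siScram pair and at -0.46 without the siPCF11 pair, with no test. The deposited ratios already pair the genotypes by siRNA, and a further replicate block could not be fitted because the labels give no replicate numbers. No member had a non-coding name, so leaving such names out changed nothing. The unknown depth sets an unknown limit on each ratio.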
